A study of Homo sapiens with 6 samples.

Results

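AP-1 is a family of transcription factors, and the genes described here are the 10 that encode its FOS, JUN and related ATF and BATF subunits, namely FOS, FOSB, FOSL1, FOSL2, JUN, JUNB, JUND, ATF3, BATF and BATF3. Of the 108542 accessible regions in the data, 53 were assigned to these genes. Regions that reached within 2 kb of where a protein-coding transcript of a member starts were read as promoter regions, and there were 21 of them among the 20094 promoter regions of all genes. A distal region was any other region whose midpoint lay nearest to the start site of a member, within 100 kb, and 32 of 55158 distal regions did so. The assignment used position alone and no measured value.

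FOS and JUN proteins share a basic leucine zipper, through which they pair with each other and hold DNA. FOS proteins need a partner from the JUN family, whereas JUN proteins can also pair among themselves, and ATF3 and the BATF proteins join the same network of dimers. FOS, FOSB, JUN, JUNB and ATF3 are immediate early genes, which are transcribed within minutes of a stimulus such as a growth factor, calcium or stress, without new protein synthesis. JUND is made more steadily, and FOSL1 and FOSL2 usually follow later and last longer. AP-1 dimers are known to act at enhancers, and AP-1 is often named among the factors that shape the enhancers of senescent cells.

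Open chromatin of EndoC-βH3 cells was profiled with ATAC-seq, in which a transposase inserts sequencing adapters into accessible DNA. This is a human pancreatic beta cell line immortalised with SV40 large T antigen and telomerase (hTERT), transgenes that the Cre recombinase fused to an oestrogen receptor (CreER) can remove. The non-senescent group (3 libraries) was untreated, and the senescent group (3 libraries) had received 4-hydroxytamoxifen (4-OHT), which activates CreER, for 3 weeks. The labels and the methods of the study give the dose of 4-OHT in different units, so none is stated here. All libraries are labelled as wild type pancreatic beta cells and came from 100000 cells each. Removal of the transgenes, the drug, the arrest of the cells and the time in culture changed together and cannot be told apart, and in bulk cells a smaller share of cells with an open site cannot be told from a smaller opening in each cell.

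The data hold 1 mean signal per region over all 6 libraries, as a normalised read count, with a log2 fold change of senescent over non-senescent cells and its standard error (SE). There is no value per library, so the spread enters only through the SE, which rests on 3 against 3 libraries, and the methods of the study give sequencing depth only as a range over the libraries. The labels do not say that the libraries came from separate cultures, in which case the p-values measure a spread that may be technical. A region was called when its adjusted p (DESeq2 Wald test, adjusted over all regions) was below 0.05 and its fold change exceeded 1.5, that is 0.585 on the log2 scale. The level in each group was computed from the mean signal and the fold change and is approximate. Of 9 beta cell genes checked, 9 had a promoter region, with mean signals of 405 to 7894. Of 8 genes of other cells 5 had one, among them CPA1 (2101), KRT19 (1059) and CD68 (644), each above the lowest beta cell gene, while PTPRC, COL3A1 and PRSS1 had none. The data do not name the numerator of the fold change, and with the senescent group taken as such, the promoter of MKI67, a proliferation gene, was lower in senescent cells (log2 fold change -0.53, SE 0.097, adjusted p = 4.6e-07). This fall did not pass the fold limit. With the same numerator, 34.7% of all promoter regions were lower at the adjusted p alone.

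The sequences just upstream of 4 start sites are shown to set FOS and ATF3, which each had a promoter region called lower, beside FOSB and JUN, which had none. The windows lie in the start site regions, with log2 fold changes of -0.30 (FOS), -0.54 (FOSB), 0.03 (JUN) and -0.69 (ATF3). Of these regions only that of ATF3 was called, since the called promoter region of FOS lay over its last exon. Each runs 5′ to 3′ on the strand of the gene over 300 bases of hg38, from 325 to 26 bases before the canonical start site. Capitals mark matches to 5 motifs searched on both strands. These were the AP-1 pattern TGANTCA, the cAMP response element TGACGTCA, its half-site TGACG, which also lies within the full element, an AP-1-like site TGACATCA, and the CArG box of the serum response element. N stands for any base, so TGANTCA is wider than the classical AP-1 site, which has C or G in the middle. TGACATCA and TGACG were added after the data had been seen.
FOS (chr14:75278503-75278802, plus strand): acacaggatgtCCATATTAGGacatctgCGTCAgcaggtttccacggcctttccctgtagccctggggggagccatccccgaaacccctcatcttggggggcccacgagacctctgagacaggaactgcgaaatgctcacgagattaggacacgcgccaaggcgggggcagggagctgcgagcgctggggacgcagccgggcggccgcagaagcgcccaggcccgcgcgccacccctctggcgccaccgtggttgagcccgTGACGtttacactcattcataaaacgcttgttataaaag
FOSB (chr19:45467671-45467970, plus strand): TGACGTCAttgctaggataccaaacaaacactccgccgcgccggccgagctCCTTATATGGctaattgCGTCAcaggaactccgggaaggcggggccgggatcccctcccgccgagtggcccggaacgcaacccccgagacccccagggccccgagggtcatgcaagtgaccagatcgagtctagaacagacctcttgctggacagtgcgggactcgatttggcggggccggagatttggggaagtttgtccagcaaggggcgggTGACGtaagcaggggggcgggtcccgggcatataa
JUN (chr1:58784073-58784372, minus strand): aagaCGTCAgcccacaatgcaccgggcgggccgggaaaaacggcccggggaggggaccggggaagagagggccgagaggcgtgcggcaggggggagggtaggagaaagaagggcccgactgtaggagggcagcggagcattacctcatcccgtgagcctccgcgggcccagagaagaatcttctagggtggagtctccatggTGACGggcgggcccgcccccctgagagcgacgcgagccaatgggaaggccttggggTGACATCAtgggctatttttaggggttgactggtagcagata
ATF3 (chr1:212608436-212608735, plus strand): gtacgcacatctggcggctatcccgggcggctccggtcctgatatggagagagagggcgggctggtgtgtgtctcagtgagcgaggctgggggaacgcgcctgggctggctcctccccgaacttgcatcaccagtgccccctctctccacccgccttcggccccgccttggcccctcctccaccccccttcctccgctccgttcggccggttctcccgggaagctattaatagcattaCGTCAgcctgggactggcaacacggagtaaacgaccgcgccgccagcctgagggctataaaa

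FOS held a CArG box that began 314 bases before the start site, and FOSB held one 274 bases before. In both genes a half-site of the cAMP response element followed the box after 7 bases, and a further half-site lay close to the start site, 64 bases before it in FOS and 60 in FOSB. FOSB also held a full cAMP response element at 325 bases. JUN held none of these boxes in the window, but TGACATCA began 67 bases before its start site, and half-sites lay at 321 and 123 bases. ATF3 held a single half-site at 87 bases, and part of its window is annotated as exon of a transcript with a retained intron, while part of that of JUN is exon of a long non-coding RNA. Over the whole promoter regions, the CArG box was found in 3 of 21 member regions and in 3.17% of all promoter regions, the cAMP response element in 2 of 21 and 3.33%, and the half-site in 14 of 21 and 53.0%. A match is only a match of letters, and no binding was measured.

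At promoters, accessibility of the AP-1 genes was lower or did not pass the limits in senescent cells, and nowhere was it called higher. ATF3, FOS and BATF3 each had at least 1 called promoter region, with residual levels between 0.358 and 0.663 of those in non-senescent cells. FOSB lay just inside the fold limit, whereas the start site regions of JUN, JUNB, JUND and FOSL2 differed by little. Of the 21 promoter regions, 4 (19.0%) were called lower and 0 higher, against 9.04% lower and 3.56% higher over all promoter regions. With the adjusted p alone, 11 (52.4%) were lower and 0 higher, against 34.7% and 10.2% of all promoter regions, and with an unadjusted p below 0.05 (DESeq2 Wald test) 12 were lower and 2 higher, against 40.0% and 12.2% of all. By gene, 3 of the 9 members with a promoter region (33.3%) had one that was called lower, against 11.0% of the 15493 genes with a promoter region. This count also depends on the number of regions per gene, with 21 regions for the 9 members and 20094 for the 15493 genes. The median log2 fold change of the 21 regions was -0.33, and that of all promoter regions was -0.13, with 16 of the members' regions below 0 and 5 above, against 69.3% of all promoter regions below 0. The median GC content of the members' promoter regions was 66.7%, against 62.2% for all, and 2 of the 21 were called lower after the trend on GC content had been removed. In a stricter Wald test, set against a fold change of 1.5 in place of none, 2 were also called lower. Shares over all promoter regions are not given for the GC correction or the stricter test, so these 2 counts have no background. The counts of members are of few regions, several of them on the same gene, and no test was made over them.

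**Figure D1:**
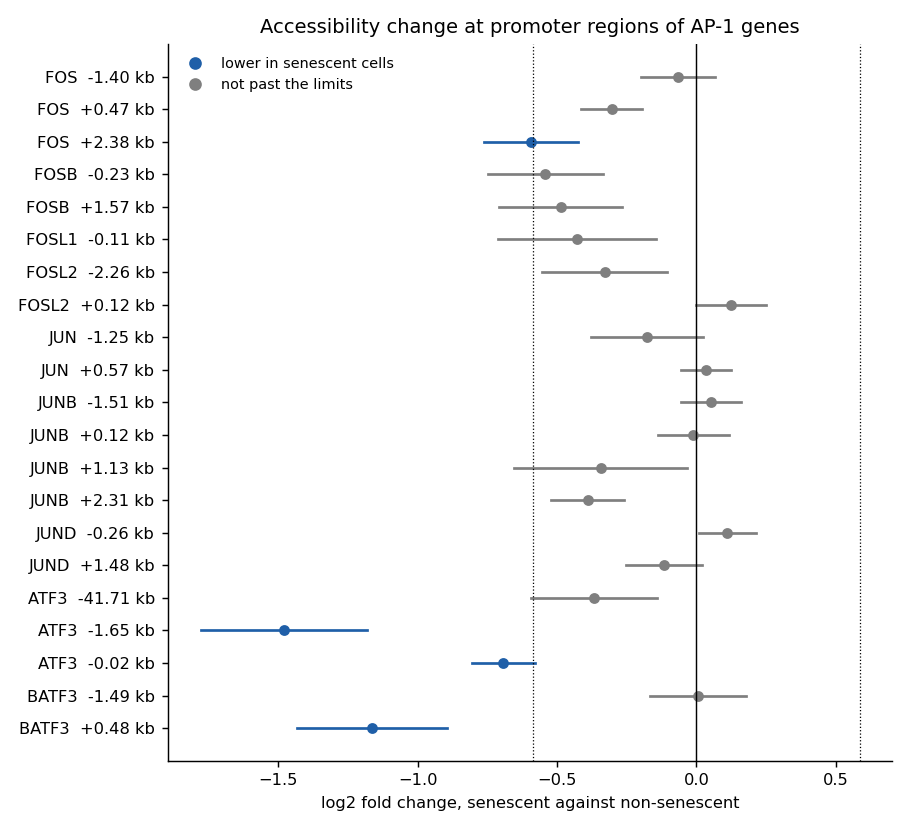
Log2 fold change of senescent over non-senescent cells (horizontal axis) with its 95% interval for the 21 promoter regions of AP-1 genes, each named by gene and by the distance of its midpoint from the canonical start site, and with dotted lines at a fold change of 1.5. Blue regions passed both limits and are those of FOS, ATF3 and BATF3, while the start site regions of JUN, JUNB, JUND and FOSL2 sit near 0.

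ATF3 encodes a stress-induced factor that can repress or activate its targets, depending on its partner. Its main promoter region at chr1:212607971-212609517, over the canonical start site and the first exon, was computed at 3086 in non-senescent and 1908 in senescent cells. The log2 fold change was -0.69 (SE 0.058, 95% interval -0.81 to -0.58, adjusted p = 4.3e-31). This was one of 9 member promoter regions with a mean signal of 1000 or more, of which 1 was called lower, and 1.04% of all promoter regions of that signal were. The call was lost in the stricter Wald test, and on removal of the trend on GC content (log2 fold change -0.56).

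A smaller region upstream of it, at chr1:212606870-212607351, fell further than any other member promoter region. Its midpoint lay 1651 bp before the canonical start site, within an intron of longer ATF3 transcripts. The level fell from 311 to 111 (log2 fold change -1.48, SE 0.152, 95% interval -1.78 to -1.18, adjusted p = 1.8e-20). The region beside the upstream start site of those longer transcripts, at chr1:212566605-212567504, went from 356 to 276 (log2 fold change -0.37, SE 0.115, adjusted p = 0.0048) and did not pass the fold limit. The interval of this upstream region overlapped neither that of the main region nor that of the region at the upstream start site, so the loss along ATF3 was uneven.

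The sequence of the upstream ATF3 region is shown because it carried the largest promoter loss. It spans 300 bases around the centre, on the plus strand.
ATF3 upstream region (chr1:212606961-212607260): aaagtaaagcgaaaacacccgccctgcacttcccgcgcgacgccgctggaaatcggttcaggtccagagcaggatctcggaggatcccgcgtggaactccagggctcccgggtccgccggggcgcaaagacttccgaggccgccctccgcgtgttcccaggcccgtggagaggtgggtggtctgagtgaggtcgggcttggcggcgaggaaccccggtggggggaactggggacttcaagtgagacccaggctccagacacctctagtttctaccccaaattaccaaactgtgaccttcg
No capitals appear because none of the motifs was found in it, and 63.7% of its bases were G or C.

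FOS encodes the founding partner of JUN and is the standard readout of immediate early induction. A series of 4 regions crossed the gene from its upstream flank to just past its end, and their log2 fold changes ran from -0.07 through -0.30 and -0.59 to -1.12 in the direction of transcription. The sign of the first turned with the trend on signal removed (0.05), or that on GC content (0.04). This region, at chr14:75276978-75277883, was computed at 1435 in non-senescent and 1371 in senescent cells (SE 0.067, adjusted p = 0.46). The region over the start site, chr14:75278279-75280311, holds the CArG box, and went from 1761 to 1426 (SE 0.056, adjusted p = 6.0e-07). Both lay inside the fold limit with their whole intervals.

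The region over the last exon of FOS, chr14:75280715-75281696, was called lower, from 821 to 544 (log2 fold change -0.59, SE 0.086, 95% interval -0.76 to -0.42, adjusted p = 1.0e-10). It passed the fold limit narrowly, and its call was lost in the stricter Wald test and after correction for the trend on signal (-0.46) or that on GC content (-0.49). Beyond the 3′ end of the gene, the intergenic region chr14:75282878-75283590, a distal region by the rule, went from 373 to 172 (log2 fold change -1.12, SE 0.131, 95% interval -1.37 to -0.86, adjusted p = 5.5e-16), and its call was kept in each of the alternatives tried. The interval of this region overlapped none of the other 3 on the gene. Mean signal along the same 4 regions was 1403, 1593, 682 and 273, and its part in the order of the changes was not tested.

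The centre of the region past the end of FOS is printed to set its base composition beside that of the promoters, since only 36.3% of these bases were G or C.
FOS downstream region (chr14:75283085-75283384, plus strand): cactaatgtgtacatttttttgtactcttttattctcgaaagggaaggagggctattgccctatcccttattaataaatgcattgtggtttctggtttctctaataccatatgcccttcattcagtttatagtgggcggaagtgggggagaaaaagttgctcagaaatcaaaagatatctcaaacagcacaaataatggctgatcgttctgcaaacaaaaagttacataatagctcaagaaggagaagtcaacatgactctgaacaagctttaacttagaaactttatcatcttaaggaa
None of the motifs was found in these 300 bases.

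BATF3, whose product pairs with JUN proteins and is best known from dendritic cells, had a pair of promoter regions that differed from each other. The region at chr1:212698999-212699722 begins in the coding part of exon 1 and runs into the first intron. It went from 352 to 157 (log2 fold change -1.16, SE 0.137, 95% interval -1.43 to -0.90, adjusted p = 7.2e-16). The region 1492 bp upstream of the start site, chr1:212700920-212701745, was at 519 and 521 (log2 fold change 0.01, SE 0.089, adjusted p = 0.97), with its whole interval inside the fold limit and a sign that turned on centring or on removal of the trend on GC content (-0.08). The lower region is shown on the minus strand, which is that of the gene, and it was the richest in G and C of the sequences printed here, at 73.3%.
BATF3 region (chr1:212699211-212699510): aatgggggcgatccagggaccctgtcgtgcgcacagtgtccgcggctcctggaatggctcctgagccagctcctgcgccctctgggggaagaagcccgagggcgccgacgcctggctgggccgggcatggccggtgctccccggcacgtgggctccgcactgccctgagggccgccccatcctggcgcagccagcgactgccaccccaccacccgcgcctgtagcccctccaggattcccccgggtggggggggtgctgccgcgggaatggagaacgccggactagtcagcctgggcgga
It too held none of the motifs. BATF3 and ATF3 lie near each other on chromosome 1, and so do FOS and BATF on chromosome 14. Their regions therefore cannot be taken as independent observations, though dependence between them was not tested.

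FOSB encodes a further FOS protein of the immediate early class. Its start site region, chr19:45467228-45468311, went from 525 to 360 (log2 fold change -0.54, SE 0.105, adjusted p = 2.1e-06). The region 1570 bp downstream, in an intron of the canonical transcript but over the start site of another, went from 407 to 290 (log2 fold change -0.49, SE 0.113, adjusted p = 9.5e-05). Both passed the adjusted p but not the fold limit, and both intervals reached across that limit, so a fold change over 1.5 was neither shown nor excluded by them. FOSL1, encoding FRA-1, had a single promoter region of low signal, at 213 in non-senescent and 159 in senescent cells (log2 fold change -0.43, SE 0.145, adjusted p = 0.0099).

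FOSL2, encoding FRA-2, had no called promoter region. Its start site region, chr2:28392183-28393781, was at 1118 in non-senescent and 1219 in senescent cells (log2 fold change 0.12, SE 0.063, 95% interval 0.00 to 0.25, adjusted p = 0.102). The upper end of this interval is well below the fold limit. The weaker region 2261 bp upstream went from 318 to 253 (log2 fold change -0.33, adjusted p = 0.012).

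The JUN family differed by less at its start sites. JUN, the principal partner of FOS, had the widest promoter region of the members, 2673 bp at chr1:58782144-58784817, over the start site and the 5′ part of its single exon, with a level of 3476 in non-senescent and 3557 in senescent cells (log2 fold change 0.03, SE 0.046, 95% interval -0.06 to 0.12, adjusted p = 0.59). JUNB, often an antagonist of JUN, was at 1145 and 1136 over its start site, chr19:12791271-12791950 (log2 fold change -0.01, SE 0.065, 95% interval -0.14 to 0.12, adjusted p = 0.905), a sign that turned when either the signal trend or the GC trend was removed (0.10 in both). Its strongest region, 1508 bp upstream, had a log2 fold change of 0.05 (mean signal 2075, SE 0.055). JUND, the steadily expressed member, was at 2257 and 2438 over its start site, chr19:18281141-18282623 (log2 fold change 0.11, SE 0.053, 95% interval 0.01 to 0.21, adjusted p = 0.076).

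These intervals exclude a fold change of 1.5 in either direction at the start sites of JUN, JUNB and JUND. The 1 JUN family promoter region that passed the adjusted p lay 2310 bp downstream of the JUNB start site, past the end of the gene and in an intron of a longer HOOK2 transcript, and went from 1350 to 1029 (log2 fold change -0.39, SE 0.066, adjusted p = 4.8e-08). BATF had no promoter region in the data, as did 21.3% of the 19676 protein-coding genes annotated.

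**Figure D2:**
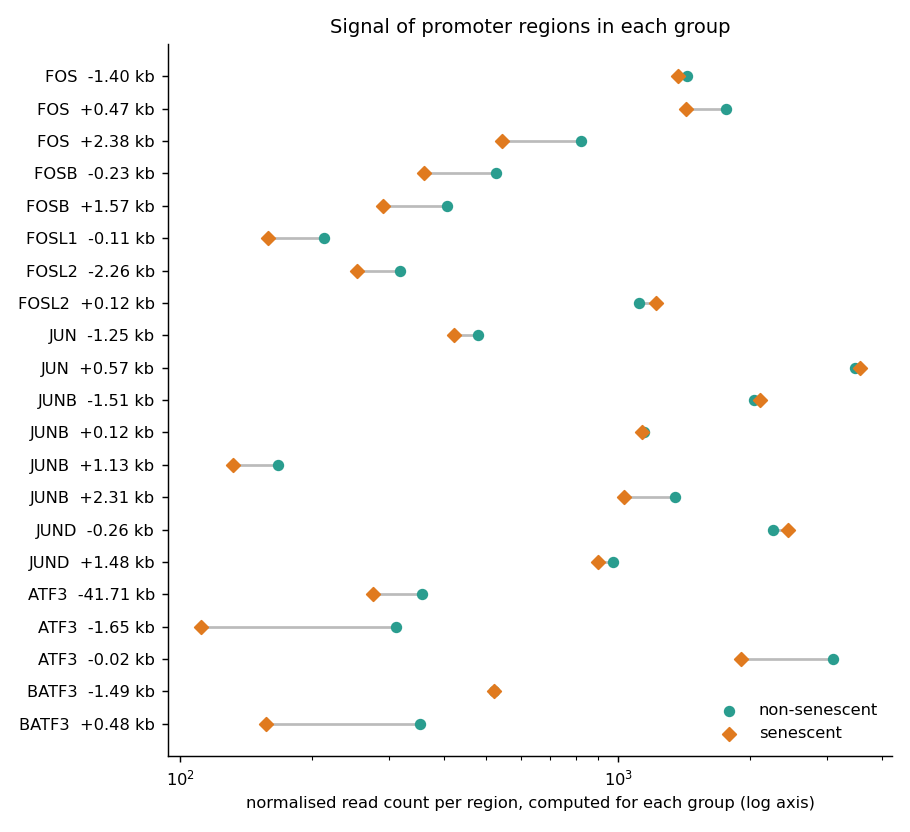
Normalised read count per region (horizontal log axis), computed for non-senescent (circles) and senescent (diamonds) cells from the mean signal and fold change, for the 21 promoter regions of AP-1 genes named as in the plot of promoter changes. The widest gap is that of the ATF3 region at 1651 bp upstream, 311 against 111, and the symbols nearly coincide for the start sites of JUN and JUNB.

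Levels between genes were compared per kb of region, over both groups. Among regions that cover a canonical start site, mean signal per kb was 1679 for JUNB, 1615 for ATF3, 1584 for JUND and 1316 for JUN. FOS had 784, FOSL2 731, FOSB 408 and FOSL1 278. In these regions the JUN family and ATF3 thus stood above the FOS family, though neighbours in this order could not be tested without values per library. The order depends on the region chosen and its width, since the FOS promoter region upstream of the start site region had 1550 per kb. The 8 member regions that cover the canonical start site had a median log2 fold change of -0.16 with 1 called lower, and the other 13 a median of -0.34 with 3 called lower. Over all promoter regions 9.04% were called lower. The same split of all promoter regions is not given here, so a difference particular to the members cannot be read from it. Below a mean signal of 300, 2 of 5 member promoter regions were called lower, against 17.5% of all promoter regions of that signal.

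Distal regions moved in both directions. JUN, FOSL2 and ATF3 each gained accessibility at a pair of distal regions, and ATF3 and FOS lost it at 1 region each. Of the 32 distal regions, 6 (18.75%) were called higher and 2 (6.25%) lower, against 17.4% and 10.9% of all distal regions. The members' share of higher regions was therefore near the background. With the adjusted p alone 9 were higher and 5 lower, against 23.0% and 19.7% over all. The median log2 fold change was 0.08 for the members and 0.03 for all distal regions.

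The 6 gains were narrow and weak sites, 207 to 389 bp wide with a mean signal of 19.7 to 125. JUN gained at chr1:58802977-58803366, 19124 bp upstream in an intron of LINC01135, from 97.2 to 152 (log2 fold change 0.65, SE 0.171, 95% interval 0.31 to 0.98, adjusted p = 0.00069). It also gained at a site 35227 bp downstream, from 23.6 to 56.7 (log2 fold change 1.26, SE 0.308, adjusted p = 0.00021). The first of these was the strongest of the gained sites, and its call was lost on removal of the trend on GC content (0.53).

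FOSL2 gained at chr2:28383603-28383825, an intergenic site 9144 bp upstream, from 34.6 to 71.4 (log2 fold change 1.05, SE 0.299, 95% interval 0.46 to 1.63, adjusted p = 0.0019). A second site 37147 bp upstream went from 18.6 to 37.6 (log2 fold change 1.02, SE 0.378, adjusted p = 0.020), and this call was lost at an adjusted p of 0.01 and on removal of the trend on mean signal. The ATF3 gains lay 73436 and 25972 bp upstream of the canonical start site, and rose by 1.53 (SE 0.454, adjusted p = 0.0029) and 1.22 (SE 0.369, adjusted p = 0.0035) on the log2 scale, at mean signals of 19.7 and 28.2. None of the 6 gains passed the stricter Wald test.

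The ATF3 locus also held the second distal loss, at chr1:212600170-212600695, 8329 bp upstream in an intron of the longer transcripts, from 64.9 to 27.4 (log2 fold change -1.25, SE 0.324, 95% interval -1.88 to -0.61, adjusted p = 0.00058). This call too was lost in the stricter Wald test. The regions of ATF3 called lower thus lay within 8329 bp of its canonical start site, and those called higher lay farther upstream.

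**Figure D3:**
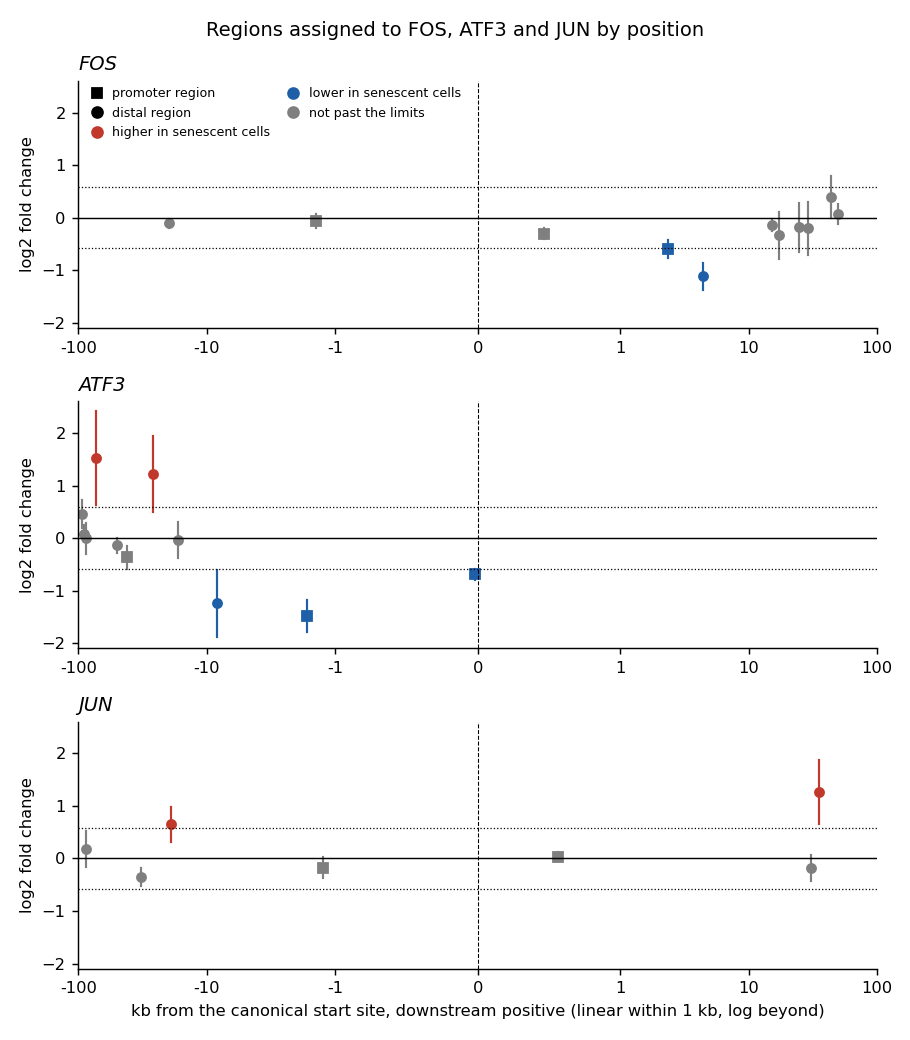
Log2 fold change of senescent over non-senescent cells with its 95% interval (vertical axis) against the distance from the canonical start site (horizontal axis, linear within 1 kb and logarithmic beyond) for the regions assigned to FOS, ATF3 and JUN. Squares are promoter and circles distal regions, red is higher and blue lower in senescent cells, and the losses at FOS and ATF3 lie within 10 kb of the start site, while the 2 gains at JUN lie at 19124 and 35227 bp.

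The 3 distal regions of highest mean signal did not pass the fold limit. The region of highest mean signal lay 19645 bp upstream of FOS, at chr14:75258707-75259660, over first exons of non-coding genes, and went from 3687 to 3413 (log2 fold change -0.11, SE 0.044, adjusted p = 0.028). A region 15316 bp downstream of FOS, at exon 1 of LINC01220, went from 2197 to 1994 (log2 fold change -0.14, SE 0.055, adjusted p = 0.030), and the strongest distal region of ATF3, 49907 bp upstream, from 1069 to 975 (log2 fold change -0.13, SE 0.073, adjusted p = 0.13), and the signs of both the latter turned on removal of the trend on GC content (0.02 and 0.03). These 3 regions also lie at start sites of non-coding genes, so with start sites of all genes in place of protein-coding ones they were no longer counted as distal regions of members.

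The strongest distal region of JUN, chr1:58815866-58816962, went from 506 to 396 (log2 fold change -0.35, SE 0.092, adjusted p = 0.00058), and that of JUNB, 2748 bp upstream, was at 497 and 496 (log2 fold change -0.00, SE 0.101), with a sign that turned when either trend was removed. That of JUND, 10533 bp upstream, went from 310 to 387 (log2 fold change 0.32, SE 0.112, adjusted p = 0.012). Those of BATF3 (0.32, mean signal 133), BATF (-0.29, mean signal 109) and FOSL1 (0.16, mean signal 47.6) did not pass the adjusted p, and FOSB had no distal region.

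The distal gains of the members were at weak regions. Below a mean signal of 50, 4 of 8 member regions were called higher and 1 lower, with a median log2 fold change of 1.01. Between 50 and 200, 2 of 13 were higher. At 200 or more 0 of 11 were higher and 1 was lower, the median was -0.11, and 9 of the 11 intervals lay wholly inside the fold limit. Over all distal regions the shares called higher in these bins were 23.0%, 19.5% and 7.60%, and the medians 0.21, 0.05 and -0.10. The shares called lower were 7.40%, 12.7% and 12.4%. Of all distal regions of any signal, 28.3% had an interval inside the fold limit, and this share is not given by bin. The same order of gains and medians was thus seen in the background, and the part of signal in the members' gains was not tested.

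**Figure D4:**
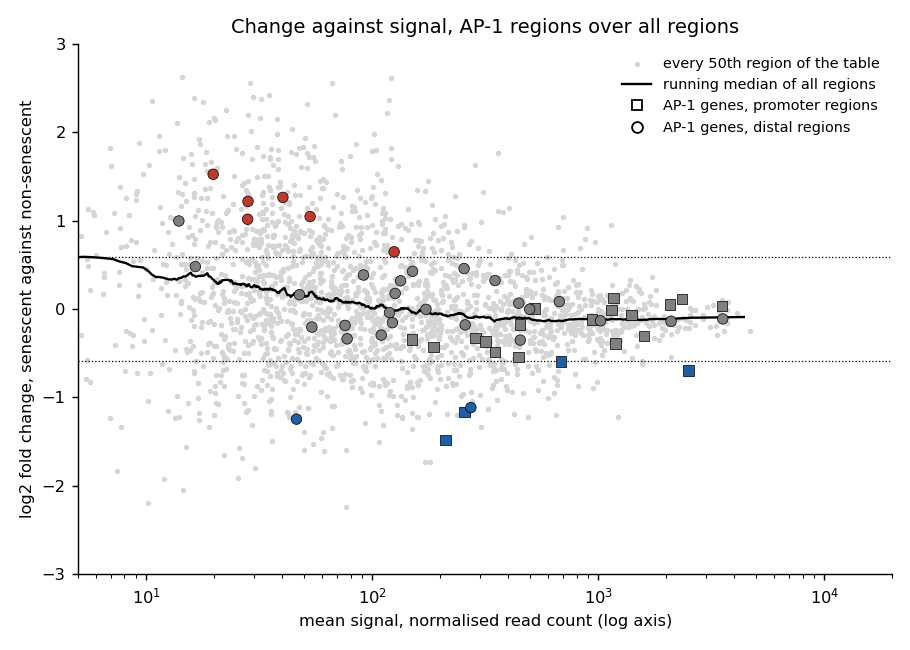
Log2 fold change against mean signal (log axis) for the 53 regions of AP-1 genes (squares for promoter, circles for distal regions, red for higher and blue for lower) over every 50th region of the whole data (grey dots), with the running median of all regions as a line. The 6 red circles lie at mean signals of 19.7 to 125, where the running median is higher than at strong regions, and 4 of the 6 blue symbols are promoter regions.

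The AP-1 pattern, with any base in the middle, was counted in the regions of these genes and over all regions. TGANTCA was found in 3 of 21 promoter and 4 of 32 distal regions of the members, against 14.5% of all promoter and 18.3% of all distal regions. The promoter regions with one were those of FOSL1, FOSL2 and the upstream ATF3 start site, none of them called. Of the 8 distal regions called in either direction, only the ATF3 gain 73436 bp upstream held one, and the others with a match were uncalled regions of JUND, ATF3 and BATF. The CArG boxes of the promoter regions were those of FOS and FOSB and 1 in the region upstream of JUNB, and none of these regions was called either.

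Genes that act with or upstream of AP-1 were read in the same way, from 6 lists. The partners outside the 10 members, ATF2, ATF7, BATF2 and JDP2, had 0 of 5 promoter regions called in either direction, 4 of them lower and 0 higher at an unadjusted p below 0.05 (DESeq2 Wald test), against 40.0% and 12.2% of all promoter regions. Of their 11 distal regions 4 were higher and 0 lower, with a median log2 fold change of 0.60, against 17.4% and 10.9% of all distal regions. The gains were at ATF7, which encodes a factor that pairs with JUN (1.22, SE 0.151, adjusted p = 2.3e-14, and 0.87), and at JDP2, a repressor of AP-1 whose gene lies between FOS and BATF (1.02 and 0.97). At an unadjusted p below 0.05, 5 of these distal regions were higher and 0 lower, against 26.7% and 22.9% of all.

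The kinases that activate AP-1 had 3 of 21 promoter regions higher (14.3%) and 0 lower, against 3.56% and 9.04% of all, with a median of -0.01. Of their 38 distal regions 10 were higher (26.3%) and 3 lower (7.89%), against 17.4% and 10.9%. At an unadjusted p below 0.05, 6 of the promoter regions were higher and 2 lower, against 12.2% and 40.0%. MAPK8, which encodes JNK1, had the greatest distal gain of the list (2.70, SE 0.482, adjusted p = 2.2e-07, mean signal 23.4) and a stronger region with 1.66 (SE 0.122, mean signal 313). The promoter calls were at MAP2K2 (1.26, mean signal 49.9) and MAPK10, the gene of JNK3 (1.23 and 0.85, mean signals 78.0 and 232). The strongest promoter regions of these genes were not called, with 0.05 for MAP2K2 (mean signal 368) and -0.10 for MAPK10 (mean signal 2183). MAPK10 also held the largest distal loss (-0.99).

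The factors that act on FOS through its serum and cAMP response elements, SRF, ELK1, ELK3, ELK4 and CREB1, had 1 of 9 promoter regions lower, at ELK4 (-0.70, SE 0.121, adjusted p = 9.0e-08), and 0 higher, against 9.04% and 3.56% of all promoter regions. Of their 8 distal regions 3 were lower and 0 higher, against 10.9% and 17.4%, with the largest loss at ELK3 (-0.96). At an unadjusted p below 0.05 the counts were 5 lower and 0 higher at promoters (40.0% and 12.2% of all), and 3 lower and 0 higher at distal regions (22.9% and 26.7% of all).

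The other immediate early genes had 3 of 23 promoter regions lower (13.0%) and 0 higher, against 9.04% and 3.56% of all, and a median of -0.21 against -0.13. At an unadjusted p below 0.05, 17 were lower and 2 higher, against 40.0% and 12.2%. The largest promoter loss was at EGR3 (-0.90, SE 0.363, adjusted p = 0.033, mean signal 28.1). Of 79 distal regions 8 were higher (10.1%, against 17.4% of all) and 6 lower (7.59%, against 10.9%). EGR2 came first among the gains (3.20, SE 0.369), at a weak region 67210 bp from the start site (mean signal 43.6). The other distal region of EGR2 had 0.01 (mean signal 1395). ARC came first among the losses (-1.21, SE 0.236, mean signal 70.5). The MAP kinase phosphatases, which switch the kinases off, had 0 of 13 promoter regions called, with 5 lower and 2 higher at an unadjusted p below 0.05 (40.0% and 12.2% of all). Of their 52 distal regions 7 were higher (13.5%, against 17.4%) and 9 lower (17.3%, against 10.9%), led by DUSP8 (1.49) and DUSP4 (-1.92).

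Of 12 textbook AP-1 targets, 7 had a promoter region. Of their 8 promoter regions 2 were lower, with VIM first (-0.76, SE 0.141, adjusted p = 7.3e-07), and 0 higher, against 9.04% and 3.56% of all, at a median of -0.51. At an unadjusted p below 0.05 the counts were 5 lower and 0 higher, against 40.0% and 12.2%. Of 16 distal regions 3 were higher, led by CD44 (1.42), and 2 lower, led by MMP10 (-1.45), against 17.4% and 10.9%. No list was tested against other genes.

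**Figure D5:**
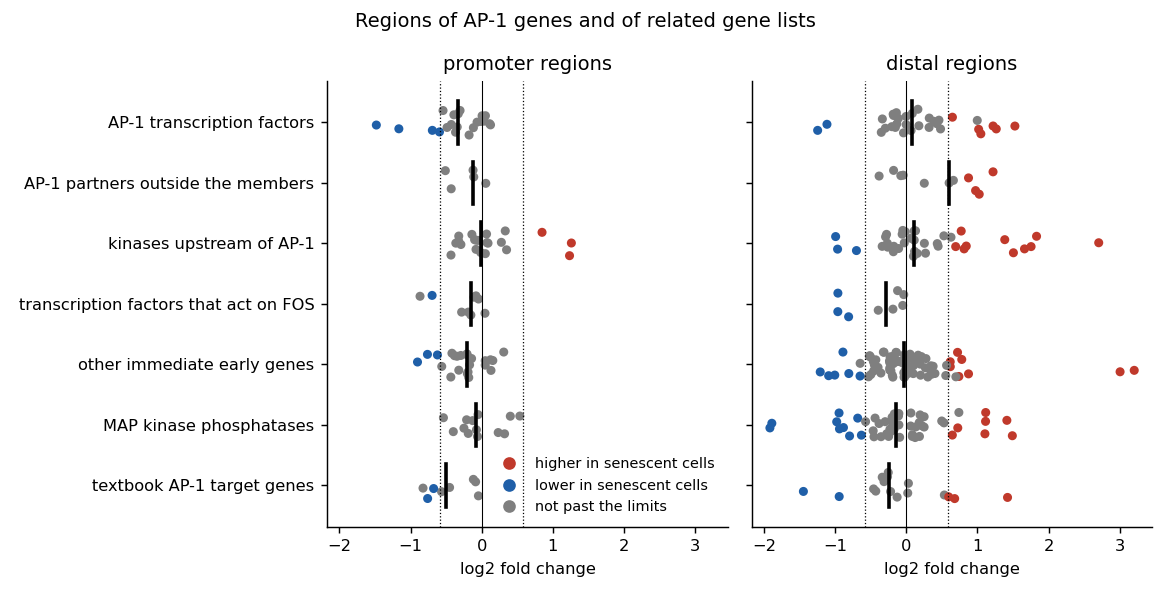
Log2 fold change of senescent over non-senescent cells (horizontal axis) for each promoter region (left) and distal region (right) of the AP-1 genes and of 6 related gene lists, with the median of each as a black bar and dotted lines at a fold change of 1.5. Promoter regions called higher (red) appear only for the 3 regions of the kinases among the lists plotted, and the distal gains of greatest size belong to the immediate early genes and the kinases.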

How the data were processed

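The 6 libraries, 3 senescent and 3 non-senescent, were grouped from their labels. The methods of the study describe trimming with Trim Galore and alignment by Bowtie2 to hg38. Mitochondrial reads were then dropped, Picard removed duplicates, and positions were moved by 4 and 5 bases to correct for the transposase. MACS2 peaks of the libraries were merged, their reads were counted, and the authors compared the groups with DESeq2. Versions are not given in the sources used here. The steps are those usual for ATAC-seq, and reads were not counted anew.

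The signal in the table deposited by the authors is the mean over the libraries of counts divided by size factors. Log2 fold changes with standard errors were also deposited by the authors, as were the Wald score and the p-value with its Benjamini-Hochberg adjustment over all 108542 regions. The score and both p-values were recomputed and were the same within rounding. Whether fold changes were shrunken is not stated, though standard errors reached 3.89. Since the table holds the authors' comparison and no value per library (0 other columns per sample), these columns were used as the test, and the depth of each library, for which the methods of the study give only a range, could not be read from them. The table does not name the numerator of the fold change, which was taken as the senescent group. Positions are given as deposited and read as counted from 0.

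Start sites came from GENCODE 44 and sequences from hg38. The sequences before the start sites of the 8 members listed by RefSeq were identical to hg38. Group levels were computed as 2 values whose mean is the mean signal and whose ratio is the fold change. The 95% intervals are Wald intervals and cover the error of the model. Called regions whose signal was 50 or more, the strongest promoter and distal region of each member, and the largest called change in each direction of each list were named, with further regions of members given for context after their values had been seen. Members, lists, motifs and thresholds were chosen with earlier results of these data known. Alternatives changed the threshold, the fold limit, the test, the filter on low signal, centring, trends on signal and GC content (running median over 1000 regions on each side), and the assignment of regions. The counts of the lists include 1 gene that is not reported here by itself. Steps were tested on simulated data. Python 3.11.15, numpy 2.4.6, pandas 2.3.3, scipy 1.17.1 and matplotlib 3.10.9 were used.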

Additional observations from a re-analysis of the deposited data

How the results depend on the processing

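The 6 counts and medians of the AP-1 regions were computed under up to 11 other settings, and 48 of the 60 values stayed within set bounds. For counts the bound was 1.5 times the main count. For medians it was a move of less than the median SE of single member regions, 0.086 at promoters and 0.176 at distal regions. The latter is wider than the distal median of 0.08 itself. Member promoter regions called lower (4) became 11 with no fold change limit, 2 with the Wald test set against a fold change of 1.5 and 2 after removal of the trend on GC content. Distal regions called higher (6) became 0 in that Wald test, 2 at a mean signal of at least 50, and 3 with start sites of all genes, which left 12 distal regions. Distal regions called lower (2) became 5 with no fold change limit, and 1 in the Wald test or at a mean signal of at least 50. The median at promoters (-0.33) became -0.24 after removal of the trend on mean signal, -0.19 after that on GC content and -0.24 with a 1 kb window. Medians over all promoter regions are not given under these alternatives. The changed values therefore cannot be set against the -0.13 of all promoter regions in the main setting. The count of promoter regions called higher was 0 under each of the other settings. Shares over all regions are given only for the main setting and without the fold change limit. Whether members lost calls more often than other regions under the remaining settings was therefore not tested.

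Of 363 values for single regions 321 kept their sign and side of the threshold, 13 passed it with no fold change limit, 15 no longer passed it and 14 changed sign. None of the latter was called. On removal of the trend on mean signal, values became 0.055 for the FOS region at 75276978, -0.0034 for the distal region of FOSL1, 0.104 and 0.0999 for the JUNB regions at 12788584 and 12791271, and 0.031 for the ATF3 region at 212520842. On removal of the trend on GC content, they became 0.044, 0.018 and -0.036 for the FOS regions at 75276978, 75293685 and 75328438, 0.154 and 0.105 for the same JUNB regions, 0.041 for the JUND region at 18279541, 0.027 for the ATF3 region at 212558260 and -0.084 for the BATF3 region at 212700920, which was -0.0020 after centring. The cause of these changes was not tested.

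No paired analysis was possible because values per library are lacking in the table, although the labels number the replicates of both groups from 1 to 3. For the same reason leaving out each replicate and a fit in edgeR with TMM scaling were not run. Standard errors reached 0.553 among the distal regions of members, and the part of depth in them was not tested.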

Other observations

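The AP-1 pattern was also read over all distal regions of the data, in the 300 bases around their centres. Forms with C or G in the middle were not counted apart from those with A or T. TGANTCA was found in 14.9% of the 9585 regions called higher in senescent cells, in 9.92% of the 6031 called lower and in 10.6% of the 39542 not called. The site read backwards, ACTNAGT, which was chosen as a control after the data had been seen and is not a known AP-1 site, was found in 10.5%, 6.90% and 7.29% of the same regions. The higher share among gained regions was thus seen with the control letters as well. Since TGANTCA allows any middle base, this comparison cannot tell AP-1 sites with C or G there from the other forms. At a mean signal of 200 or more, 14.3% of higher, 10.1% of lower and 10.4% of uncalled regions held TGANTCA, and 9.16%, 7.47% and 6.52% the backward letters. Median GC content was 45.4% in the higher, 46.2% in the lower and 47.7% in the uncalled regions, and its part in these shares was not tested.

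Among promoter regions, 13.7% of the 715 called higher held TGANTCA near the centre, against 3.96% of the 1817 called lower and 4.20% of the rest. The backward site was found in 9.23%, 3.47% and 2.97%. The promoter regions called higher had a median GC content of 48.7% and a median signal of 76.0, far from the 62.4% and 612 of the uncalled ones, and no member region was among them.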
